A study of Mus musculus with 4 samples.

Results

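The angiopoietins, the vascular endothelial growth factor (VEGF) ligands and the angiopoietin-like genes are secreted signals by which stromal cells act on blood vessels, and 9 genes were followed here, 8 for such secreted proteins and 1 for a receptor. They were Angpt1, Angpt2, Tek, Angptl2, Angptl4, Vegfa, Vegfb, Vegfc and Pgf, chosen by symbol from the 24487 rows of the FPKM table (fragments scaled to the length of the transcript and to the number of mapped fragments). Each symbol had 1 row, so no choice between rows was needed. The list was drawn up with earlier results of these libraries known, in particular the levels of Angpt1 and Angpt2. The difference between the groups is therefore a description for these genes, and the tests given below say how it compares with the spread between libraries.

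RNA came from cultured mesenchymal stem/progenitor cells of mouse bone marrow, stromal cells that attach and grow out on plastic. There were 2 libraries from Asxl1-/- cells and 2 from wild-type (WT) cells, all on a C57BL/6 background and at passages 5 to 10. All were grown in MesenCult medium with 20% supplement, with no treatment named. Asxl1 encodes a chromatin regulator that partners the deubiquitinase BAP1. The sources used here do not say whether the deletion was made in all cells or by a Cre line, how old the mice were, or whether each library had its own donor animal. The p-values below therefore measure the spread between these libraries only.

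Angiopoietin-1, the product of Angpt1, is made by perivascular and stromal cells and activates the receptor tyrosine kinase Tek on endothelial cells, which keeps vessels quiescent and tight. Angiopoietin-2, the product of Angpt2, binds the same receptor and in many settings opposes angiopoietin-1, and it is known mainly as a product of endothelial cells. In bone marrow, Angpt1 and Tek are also known from the contact between stroma and blood stem cells. The VEGF ligands act through the receptors Flt1, Kdr and Flt4, with the neuropilins as co-receptors.

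The checks on the libraries touch some of these results. Asxl1 stood at 0.273 and 0.312 FPKM in the Asxl1-/- libraries, against 14.6 and 11.2 FPKM in the WT libraries, which follows the genotype labels. Read totals are unknown, and the relative depths read from the steps of low FPKM values lay between 0.956 and 1.03. WT replicate 2 stood apart in that rows with a span under 300 bp held 40.9% of its FPKM sum, against 21.4% to 24.9% in the other 3 libraries. Of 16 mesenchymal stromal markers, 15 had a mean of at least 1 FPKM and 1, Lepr, was at or near 0 in all 4 libraries. Under 1 FPKM were 3 and 2 of the 16 in Asxl1-/- replicates 1 and 2, and 1 in each WT library. Without overlap, 3 of the 15 were higher in Asxl1-/- and 4 lower. Nt5e was under 1 FPKM in both Asxl1-/- libraries (0.493 and 0.507) and above it in both WT libraries (2.31 and 7.19). Pdgfra was 4.78 FPKM in WT replicate 2 and 58.8 to 80.9 FPKM elsewhere. Dcn was 620 FPKM in Asxl1-/- replicate 2 and 28.6 to 66.6 FPKM elsewhere. Of 13 endothelial markers, 11 or 12 were under 1 FPKM in each library and 4 (Tie1, Cldn5, Emcn and Sox17) were listed at 0 in all of them. Macrophage markers set replicates 2 of both groups apart. Lyz2 stood at 2.36 and 293 FPKM in Asxl1-/- replicates 1 and 2, against 2.85 and 400 FPKM in WT replicates 1 and 2. The summed level of 16 macrophage markers was 81.4 and 376 FPKM in Asxl1-/- replicates 1 and 2, of which Fcer1g gave 72.2 FPKM in replicate 1, against 7.58 and 562 FPKM in WT replicates 1 and 2.

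A filter of at least 1 FPKM on average left 8 of the 9 genes among 11485 tested with limma on log2(FPKM + 1). Tek did not reach it, and Angpt2 passed only through its level in the Asxl1-/- libraries. The threshold, an adjusted p under 0.05, was passed by 0 of the 8 genes in either direction, against 0% higher and 0.0261% lower among all tested genes. At an unadjusted limma p under 0.05 there was 1, Angpt2, against 7.91% of all tested genes. The groups did not overlap for 3 of the 8. Angpt2 was higher in both Asxl1-/- libraries, as were 15.6% of all tested genes, and Angpt1 and Vegfc were lower in both, as were 25.2% of all tested genes. The median log2 fold change of the 8 was -0.27, against -0.07 over all tested genes, with 6 of 8 below 0, against 56.8% of all tested genes. In these counts and in the median the 8 genes lie near the whole table. Angpt2 and Angpt1 had the largest log2 fold changes of the 8, at 4.29 and -1.78, and the other 6 lay between -0.36 and 0.41.

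**Figure D1:**
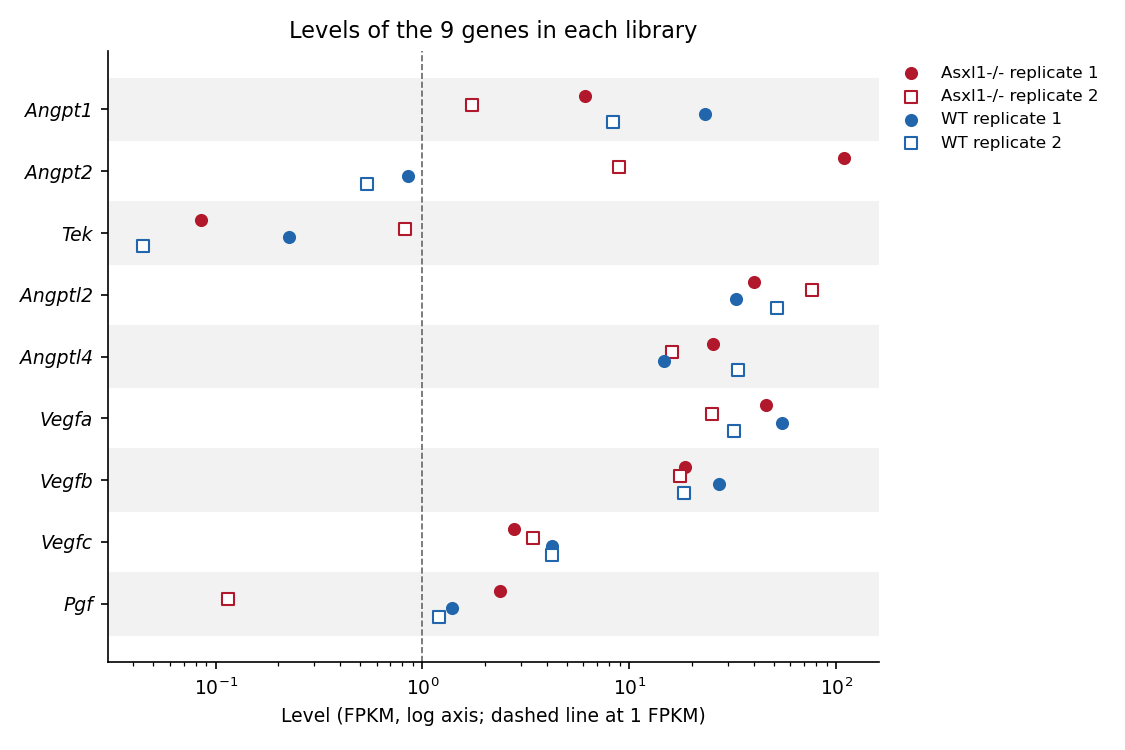
Level of each of the 9 genes (rows) in FPKM on a log axis, with 1 point per library: Asxl1-/- in red, WT in blue, replicates 1 as filled circles and replicates 2 as open squares. The red and blue points separate for Angpt2, Angpt1 and Vegfc and mix for the other 6 genes; Angpt2 spans 0.541 to 109 FPKM.

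Angpt2 was well above 1 FPKM in both Asxl1-/- libraries and under it in both WT libraries. It stood at 109 and 8.93 FPKM in the Asxl1-/- libraries, against 0.85 and 0.541 FPKM in the WT libraries (means 59.2 ± 71.0 and 0.696 ± 0.219, SD, n = 2 each). The lower Asxl1-/- library was 10.5 times the higher WT library, and the extremes were 202-fold apart. Among the 9 genes Angpt2 ranked 1 in Asxl1-/- replicate 1 and 5 in Asxl1-/- replicate 2, against 8 in both WT libraries. In Asxl1-/- replicate 1 its level was above 97.4% of all rows of the table, and in WT replicate 2 it was near the middle, at 50.6%. In limma its log2 fold change was 4.29 ± 1.17 (standard error) at an adjusted p of 0.553. It was the gene with rank 10 from the top among the 11485 fold changes. That rank is a description only, since Angpt2 was listed with its levels known and passed the filter only through the Asxl1-/- libraries. With no filter its standard error was 1.32 and its limma adjusted p 0.658.

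The Asxl1-/- libraries differed 12.2-fold from each other in Angpt2, while the WT libraries differed 1.57-fold. Without Asxl1-/- replicate 1 the log2 fold change was 2.56, and without Asxl1-/- replicate 2 it was 6.03. In the authors' deposited table Angpt2 has a log2 fold change of 6.53 with a p of 0.247 and a q of 0.999. Replicates 1, both low in macrophage markers, differed by 5.90 on the log2 scale (Asxl1-/- minus WT), and replicates 2, both high in them, by 2.69. What part the macrophage markers have in the level of Angpt2 was not tested. Endothelial markers, whose cells are a known source of Angpt2, summed to 3.44 and 9.21 FPKM over 13 genes in the Asxl1-/- libraries, against 17.7 and 4.03 FPKM in the WT libraries. Most of that sum came from Cdh5 in Asxl1-/- replicate 2, at 7.11 FPKM, and from Eng and Egfl7 in WT replicate 1, at 10.7 and 6.21 FPKM. The part of endothelial cells in the level of Angpt2 was not tested.

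Angpt2 lies on chromosome 8 at 18690263 to 18741562 of the mouse build mm10, on the minus strand, inside the gene Mcph1 on the plus strand. Whether strand was kept is not stated in the labels, so fragments of overlapping exons could not be assigned with certainty. Mcph1, a gene of chromosome condensation and the DNA damage response, stood at 2.89 and 3.80 FPKM in the Asxl1-/- libraries, against 4.82 and 3.88 FPKM in the WT libraries. The part of overlapping fragments in the level of Angpt2 was not tested. In limma the log2 fold change of Mcph1 was -0.30 ± 0.28 (standard error, adjusted p = 0.804).

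Angpt1, the activating ligand, had the opposite difference. It stood at 6.09 and 1.74 FPKM in the Asxl1-/- libraries, against 23.3 and 8.37 FPKM in the WT libraries (means 3.91 ± 3.07 and 15.8 ± 10.6, SD, n = 2 each). The groups did not overlap, though the lower WT library was only 1.38 times the higher Asxl1-/- library. Its log2 fold change of -1.78 ± 0.68 (standard error) had an unadjusted limma p of 0.0512 and an adjusted p of 0.629. Of all tested genes, 1.35% had a log2 fold change this low or lower, which is a description of a gene listed with its levels known. The gene lies on chromosome 15 at 42424667 to 42676977 (mm10), on the minus strand, with no protein-coding gene overlapping it in GENCODE M21.

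Within each group, Angpt1 was lower in replicate 2, the library high in macrophage markers. Asxl1-/- replicates differed 3.50-fold and WT replicates 2.78-fold. Asxl1-/- minus WT gave -1.78 on the log2 scale for replicates 1, low in these markers, and -1.77 for replicates 2, high in them, each from 1 library against 1 library. What part the macrophage markers have in the level of Angpt1 was not tested. Without WT replicate 1 the log2 fold change was -1.09, and without WT replicate 2 it was -2.46. The authors' deposited table gives Angpt1 group values of 4.90 FPKM in Asxl1-/- and 18.1 FPKM in WT, a p of 0.00125 and a q of 0.0942. In that table none of the 9 genes is marked significant, against 0.939% of all its tested genes, and Angpt1 is the only member with a p under 0.05, against 7.34% of all.

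The ratio of the ligands turned over between the groups. Angpt2 exceeded Angpt1 by 18.0-fold and 5.13-fold in the Asxl1-/- libraries, whereas Angpt1 exceeded Angpt2 by 27.4-fold and 15.5-fold in the WT libraries. On the log2 scale with 1 FPKM added to each level, the ratio of Angpt2 to Angpt1 was 3.96 and 1.86 in the Asxl1-/- libraries, against -3.72 and -2.60 in the WT libraries. The means were 2.91 ± 1.49 in Asxl1-/- and -3.16 ± 0.79 in WT (SD, n = 2 each), a difference of 6.07. No test is given for this ratio, since both genes were known to differ before it was formed, and an exact permutation test of 2 against 2 libraries cannot give a two-sided p under 0.333. FPKM are scaled to transcript length, so the levels of the ligands can be set side by side, but a ratio of transcripts is no ratio of proteins. In bulk cultures, a change in the number of cells that make a ligand and a change in RNA per cell cannot be told apart.

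**Figure D2:**
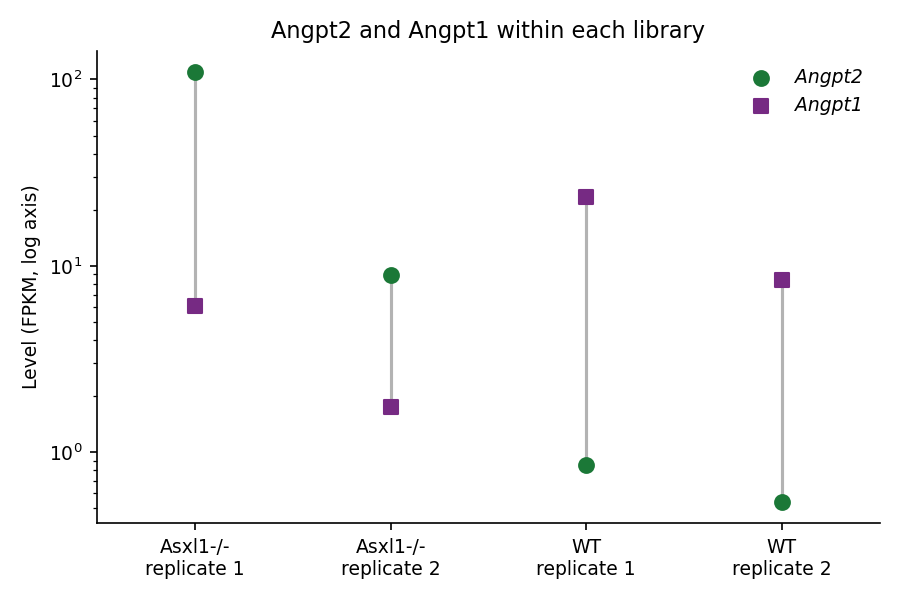
Level of Angpt2 (green circles) and Angpt1 (purple squares) in FPKM on a log axis in each of the 4 libraries, with a grey line joining the genes of a library. Angpt2 lies above Angpt1 in both Asxl1-/- libraries (109 over 6.09 and 8.93 over 1.74 FPKM) and below it in both WT libraries (0.85 under 23.3 and 0.541 under 8.37 FPKM).

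Tek, the receptor of both ligands, was barely detected. It stood at 0.0849 and 0.821 FPKM in the Asxl1-/- libraries, against 0.227 and 0.0444 FPKM in the WT libraries, and the groups overlapped. With no filter on low values limma gave it a log2 fold change of 0.31 ± 0.30 (standard error; adjusted p = 0.818). Of the partners of Tek, the related receptor gene Tie1 was listed at 0 in all 4 libraries. Ptprb, the phosphatase that acts on Tek, stood at 2.42 and 0.0473 FPKM in the Asxl1-/- libraries, against 0.0258 and 0.00328 FPKM in the WT libraries. Its level above 1 FPKM was in Asxl1-/- replicate 1, the library with the highest Angpt2.

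Both angiopoietin-like genes overlapped between the groups. Angptl2, a secreted protein with roles in inflammation and in matrix remodelling, had the highest mean level of the 9 genes, 50.3 FPKM over the 4 libraries. It stood at 39.9 and 76.6 FPKM in the Asxl1-/- libraries, against 32.8 and 52.0 FPKM in the WT libraries, so that the lower Asxl1-/- library lay between the WT libraries. Its log2 fold change of 0.41 ± 0.43 (standard error; limma adjusted p = 0.823) became -0.048 without Asxl1-/- replicate 2. Angptl2 was higher in replicate 2 of each group. It lies on chromosome 2 at 33215961 to 33247714 (mm10, plus strand) inside Ralgps1 on the minus strand, a gene that reached at most 1.45 FPKM in any library.

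Angptl4, an inhibitor of lipoprotein lipase that is induced by hypoxia and by the fatty acid receptors of the PPAR family, stood at 25.4 and 16.1 FPKM in the Asxl1-/- libraries, against 14.8 and 33.3 FPKM in the WT libraries. The WT libraries enclosed both Asxl1-/- libraries. In limma it had a log2 fold change of -0.13 ± 0.47 (standard error; adjusted p = 0.955). Its sign changed with the libraries used, at 0.43 without WT replicate 2 and 0.18 without Asxl1-/- replicate 2. Replicates 1 differed by 0.74 (Asxl1-/- minus WT, log2 scale) and replicates 2, high in macrophage markers, by -1.01. The part of the macrophage markers in this was not tested.

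Among the 4 VEGF ligands of the 9 genes, Vegfa, the main driver of vessel growth, was highest in every library, and the libraries of the groups overlapped. It stood at 45.6 and 25.1 FPKM in the Asxl1-/- libraries, against 54.8 and 31.9 FPKM in the WT libraries. Replicate 1 was the higher library in each group, by 1.81-fold in Asxl1-/- and 1.72-fold in WT. The spread within the groups thus exceeded the difference between their means, 35.4 ± 14.5 in Asxl1-/- and 43.4 ± 16.2 FPKM in WT (SD, n = 2 each). Its log2 fold change was -0.30 ± 0.43 (standard error, limma adjusted p = 0.876). Replicates 1, low in macrophage markers, differed by -0.26 (Asxl1-/- minus WT, log2 scale), and replicates 2, high in them, by -0.33. The sign of the log2 fold change was the other one without WT replicate 1, at 0.084, and without Asxl1-/- replicate 2, at 0.12.

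Vegfb, a ligand of Flt1 that has been linked to fatty acid handling, stood at 18.7 and 17.6 FPKM in the Asxl1-/- libraries, against 27.3 and 18.3 FPKM in the WT libraries. Of the 4 values only WT replicate 1 lay apart, and Asxl1-/- replicate 1 was above WT replicate 2. Its log2 fold change of -0.29 ± 0.28 (standard error; limma adjusted p = 0.816) became -0.012 without WT replicate 1.

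Vegfc, which acts on lymphatic vessels through Flt4, was lower in both Asxl1-/- libraries by a small amount. It stood at 2.78 and 3.43 FPKM in the Asxl1-/- libraries, against 4.24 and 4.24 FPKM in the WT libraries. The lower WT library was 1.24 times the higher Asxl1-/- library. A log2 fold change of -0.36 ± 0.27 (standard error; limma adjusted p = 0.756) resulted, and with 1 library left out it ran from -0.47 to -0.24. No overlap in this direction was seen for 25.2% of all tested genes.

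Pgf, the placental growth factor and a ligand of Flt1, was near the filter. It stood at 2.36 and 0.115 FPKM in the Asxl1-/- libraries, against 1.38 and 1.21 FPKM in the WT libraries. The Asxl1-/- libraries lay on either side of WT and differed 20.6-fold from each other, while the WT libraries differed 1.14-fold. In limma it had a log2 fold change of -0.24 ± 0.64 (standard error; adjusted p = 0.936), which became 0.55 without Asxl1-/- replicate 2.

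**Figure D3:**
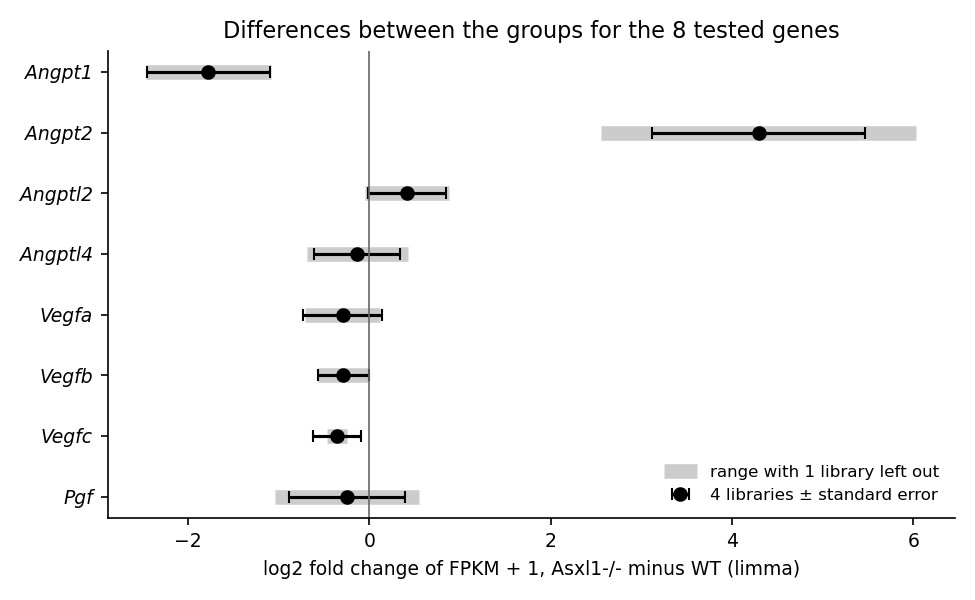
log2 fold change of FPKM + 1, Asxl1-/- minus WT, for the 8 tested genes, as black points with the limma standard error from all 4 libraries; grey bars run from the lowest to the highest value with 1 library left out. The bars of Angpt2 (2.56 to 6.03) and Angpt1 (-2.46 to -1.09) stay on 1 side of 0, as do those of Vegfb and Vegfc, and the bars of the other 4 genes cross 0.

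By mean level over the 4 libraries, Angptl2 (50.3 FPKM) was followed by Vegfa (39.4), Angpt2 (29.9), Angptl4 (22.4), Vegfb (20.5), Angpt1 (9.88), Vegfc (3.67), Pgf (1.27) and Tek (0.294 FPKM). The ranges over the libraries overlapped for every pair of neighbours in this order except Vegfc and Pgf. Vegfa, Vegfb, Vegfc and Pgf summed to 69.4 and 46.3 FPKM in the Asxl1-/- libraries, against 87.7 and 55.7 FPKM in the WT libraries. Vegfa made up 65.7% and 54.3% of that sum in Asxl1-/-, against 62.5% and 57.3% in WT, and the groups overlapped in both the sum and the share.

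A further VEGF ligand, outside the 9, was also abundant. Figf, the table's symbol for VEGF-D, stood at 20.0 and 130 FPKM in the Asxl1-/- libraries, against 22.9 and 53.6 FPKM in the WT libraries. It was higher in replicate 2 of each group and overlapped between the groups (log2 fold change 0.54, standard error 0.98, limma adjusted p = 0.900). Counted with the other 4, Figf made up 22.4% and 73.7% of the VEGF ligand sum in Asxl1-/-, against 20.7% and 49.0% in WT. Of the 7 matched genes of the family list outside the 9, Angpt4, a further ligand of Tek, was the other tested one, at 7.58 and 4.20 FPKM in Asxl1-/-, against 4.51 and 4.88 FPKM in WT.

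**Figure D4:**
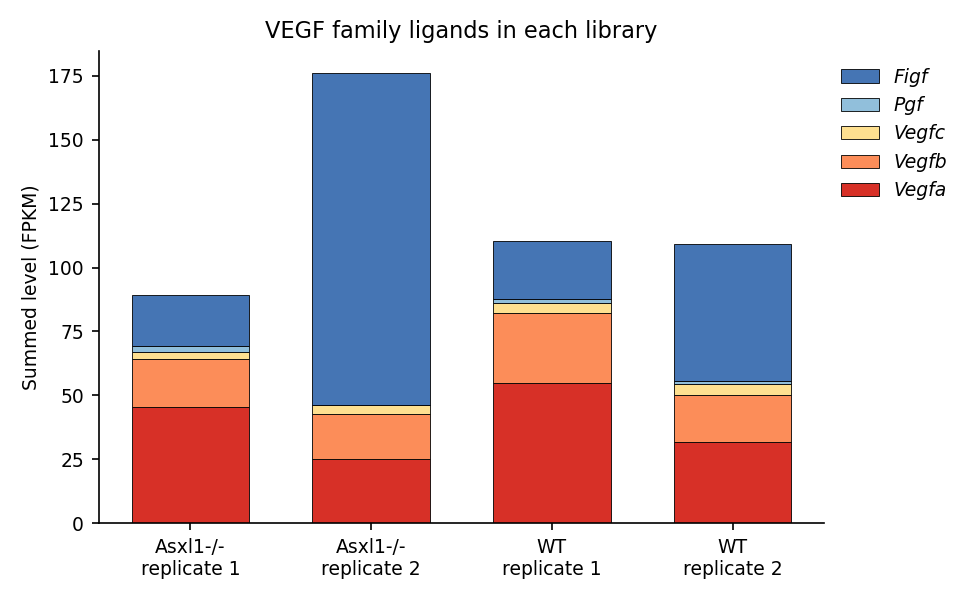
Stacked levels in FPKM of Vegfa, Vegfb, Vegfc, Pgf and Figf in each of the 4 libraries. Vegfa is the tallest segment in replicate 1 of both groups (45.6 and 54.8 FPKM), and Figf is the tallest in replicate 2 of both (130 and 53.6 FPKM).

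The receptor genes showed few endothelial receptors and high levels of co-receptors. Kdr, the main signalling receptor of VEGF-A, was under 1 FPKM in all 4 libraries. Flt1 was listed at 0 in replicate 1 of Asxl1-/- and reached 1.62 FPKM in replicate 2, against 1.22 and 0.418 FPKM in the WT libraries. Flt4 exceeded 1 FPKM in WT replicate 2, at 3.40. Of the 11 genes of the receptor list 6 were tested, all neuropilins or integrin chains, and 0 passed the adjusted threshold in limma, with 1 at an unadjusted p under 0.05. All 6 had a positive log2 fold change, against 43.2% of all tested genes, with a median of 0.43, against -0.07 over all tested genes. Higher without overlap between the groups were 3 of the 6, against 15.6% of all tested genes.

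Nrp1, the co-receptor that binds VEGF-A and semaphorin 3A, was the receptor with the unadjusted p under 0.05. It stood at 41.1 and 57.0 FPKM in the Asxl1-/- libraries, against 26.7 and 24.0 FPKM in the WT libraries (log2 fold change 0.91, standard error 0.27, limma adjusted p = 0.564). Its levels in Asxl1-/- thus both exceeded those in WT. Nrp2, the co-receptor of VEGF-C, had 23.7 and 115 FPKM in Asxl1-/-, against 20.1 and 66.4 FPKM in WT, high in replicate 2 of each group. The integrin chain gene Itgb5 had 124 and 243 FPKM in Asxl1-/-, against 59.1 and 112 FPKM in WT. Itgav and Itgb1, which encode further integrin chains, had log2 fold changes of 0.17 and 0.35.

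**Figure D5:**
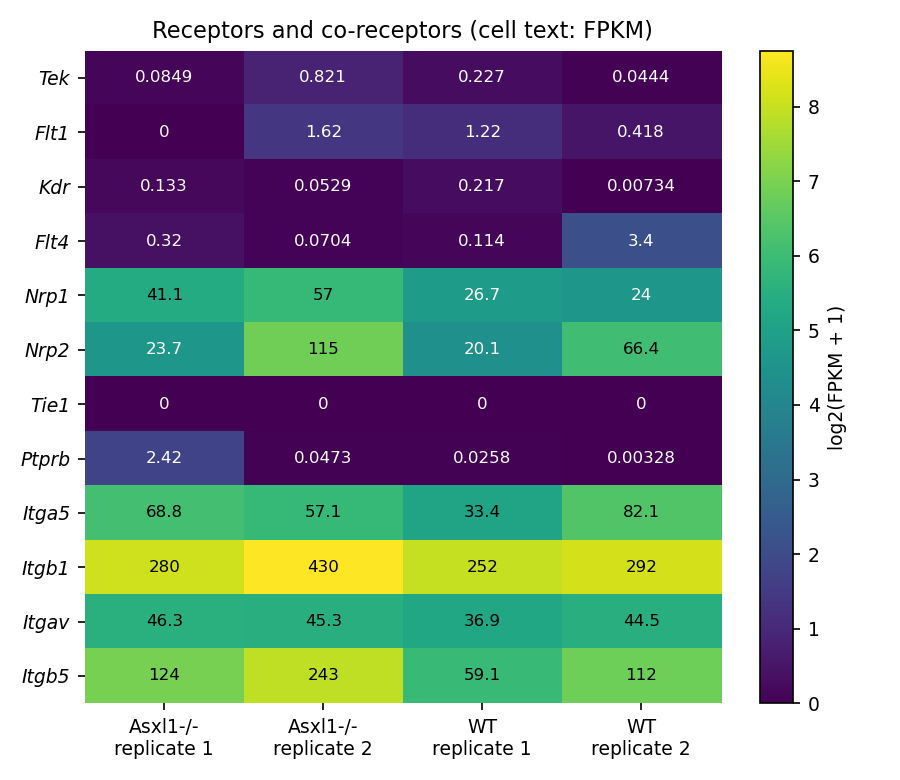
Levels of Tek and the 11 genes of the receptor list in the 4 libraries, with FPKM printed in each cell and log2(FPKM + 1) as the colour. Tek, Flt1, Kdr, Flt4, Tie1 and Ptprb stay at or under 3.40 FPKM in every library, while the neuropilins and integrin chains lie at 20.1 FPKM or more.

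The pathway around these genes was read from lists of regulators and partners, 9 lists in all with the receptors, the other ligands and the cell type markers. Of their 85 distinct tested genes, 0 passed an adjusted p under 0.05 in limma and 9 had an unadjusted p under 0.05, against 7.91% of all tested genes. The hypoxia list holds regulators of Vegfa and Angptl4, genes that restrain those regulators, and secreted and other targets of the same factors. A positive sign therefore does not mean the same throughout the list. Of its 17 tested genes, 13 had a positive log2 fold change, against 43.2% of all tested genes, with a median of 0.38. Without overlap, 8 were higher and 1 lower, against 15.6% and 25.2% of all tested genes. Adm, the vasoactive peptide adrenomedullin, had 147 and 94.7 FPKM in Asxl1-/-, against 12.8 and 27.5 FPKM in WT (limma adjusted p = 0.488), and it is marked significant in the authors' deposited table. Cxcl12, the chemokine that holds blood stem cells in the marrow, had 1297 and 947 FPKM in Asxl1-/-, against 641 and 744 FPKM in WT. Ndrg1, a stress gene of the same list, stood the other way, at 4.77 and 8.81 FPKM in Asxl1-/-, against 21.8 and 15.2 FPKM in WT. Vegfa and Angptl4, with log2 fold changes of -0.30 and -0.13, had the other sign from most of the list.

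In the list of PPAR receptors and lipid genes, 4 of 11 tested genes had a positive log2 fold change, against 43.2% of all tested genes. The other 7 had a negative one, and the median was -0.18. Without overlap between the groups, 1 of the 11 was higher and 3 lower, against 15.6% and 25.2% of all tested genes. Only those genes are named below, and the rest of the 11 overlapped. Ppard, a receptor that induces Angptl4, had 10.3 and 10.6 FPKM in Asxl1-/-, against 15.5 and 21.2 FPKM in WT (limma adjusted p = 0.607). Acadm, an enzyme of fatty acid oxidation, had 18.1 and 23.4 FPKM in Asxl1-/-, against 56.5 and 32.7 FPKM in WT. Plin2, a lipid droplet coat gene, had 39.2 and 25.5 FPKM in Asxl1-/-, against 51.1 and 41.1 FPKM in WT, and Cpt1a, which brings fatty acids into mitochondria, at 36.7 and 42.2 FPKM, against 27.1 and 32.9 FPKM in WT.

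Of the other secreted modulators of vessel growth, 7 of 14 tested genes had a positive and 7 a negative log2 fold change. The positive share of all tested genes was 43.2%. Without overlap, 2 of the 14 were higher and 5 lower, against 15.6% and 25.2% of all tested genes. Sema3a, a repulsive ligand that binds Nrp1, had 8.68 and 3.96 FPKM in Asxl1-/-, against 29.9 and 30.4 FPKM in WT (log2 fold change -2.17, standard error 0.38, limma adjusted p = 0.488), and it is marked significant in the authors' deposited table. Col18a1, the collagen that gives rise to endostatin, had 2.38 and 1.94 FPKM in Asxl1-/-, against 7.04 and 4.61 FPKM in WT. Timp3, a matrix protease inhibitor that also blocks the VEGF receptor Kdr, had 465 and 218 FPKM in Asxl1-/-, against 58.1 and 170 FPKM in WT. Cyr61, a matricellular protein that promotes vessel growth, had 217 and 244 FPKM in Asxl1-/-, against 383 and 383 FPKM in WT.

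The genes with the most similar profiles were sought by the distance between log2(FPKM + 1) values of the 4 libraries after centring, a description over 4 libraries. Nearest to Angpt2 were the vasopressin receptor gene Avpr1a (distance 0.588), the Wnt modulator Sfrp4 (1.02) and the complement gene C2 (1.39). Sfrp4 had 64.6 and 2.02 FPKM in Asxl1-/-, against 0.297 and 0.126 FPKM in WT. Nearest to Angpt1 were Brinp3 (0.164), at 7.82 and 2.42 FPKM in Asxl1-/-, against 28.5 and 12.2 FPKM in WT, Mpp6 (0.201) and Ndufs5 (0.339). Nearest to Vegfa was Arl14ep (0.0712), followed by Peli2 (0.0877) and Nampt (0.103). Those nearest to Angptl4 were Myo5a, Inf2 and Qars, to Angptl2 Cpd, Med16 and Tns3, and to Pgf Gabre, B2m and Kcnd1. Vegfb and Vegfc varied too little, by 0.60 and 0.47 on the log2 scale, to be matched.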

How the data were processed

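RNA of cultured mouse bone marrow mesenchymal stem/progenitor cells was sequenced, in 2 Asxl1-/- and 2 WT libraries, grouped by the genotype label. Per the submitters' processing notes, the authors used TopHat2 2.0.3, and Cufflinks 2.2.1 with Cuffdiff, on mm10. Which gene annotation and library kit they used is not stated in the labels. The deposited FPKM table and the authors' deposited Cuffdiff table, which holds FPKM by group, log2 ratios of Asxl1-/- to WT, p-values and q-values, were used. Another 2 columns of the FPKM table belong to no sample of the series and were left aside. File starts are given with 1 added. Strand and overlaps come from GENCODE M21.

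FPKM are not counts, so log2(FPKM + 1) of the 11485 rows with a mean of at least 1 FPKM was tested with limma 3.58.1 in R 4.3.3 (lmFit, eBayes with variance trend, two-sided), adjusted by Benjamini-Hochberg over all rows at 0.05, after a check on simulated data. Fold changes on this scale understate the change of low genes. The simulated libraries of a group were set to differ less than the real ones. The median absolute log2 difference over all tested genes was 0.311 between the Asxl1-/- libraries and 0.380 between the WT libraries. The check therefore does not show how many changed genes could be found here. Summaries used pandas 2.3.3 and numpy 2.4.6 under Python 3.11.15, and plots matplotlib 3.10.9.

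The members, lists and tests were chosen with earlier results of these data known. Of 123 list symbols 119 matched a row. Named genes were the 9 members, Asxl1, up to 4 tested genes per list with the smallest p, defining markers, and the 3 tested genes nearest to each member whose log2 range exceeded 1. Unnamed gene models, small RNAs and Y-linked genes were left out of the nearest genes. Ptprb, Flt1, Flt4, Kdr, Tie1, Nrp2, Lyz2, Lepr, Mcph1 and Ralgps1 fall outside this rule and were named with their values known. The same holds for Cspg4, Mcam, Notch3, Kcnj8, Abcc9, Pdgfra and Dcn. A gene of the hypoxia list that the rule takes is not reported here. Alternatives changed the pseudocount (0.1 or 0.5), the filter (none, or 5 FPKM), the scaling (quantiles, or median ratios) and the variance model (robust, or without trend), or left out genes under 300 bp or each library.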

Additional observations from a re-analysis of the deposited data

How the results depend on the processing

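No member was called in any of the 13 alternatives, and the smallest limma adjusted p of a member ran from 0.231 (Angpt2 without Asxl1-/- replicate 2) to 0.895 over them. The signs of Angpt1, Angpt2, Vegfb and Vegfc held in every alternative that tested them. Those of Angptl2, Angptl4, Vegfa and Pgf turned with 1 library left out, where their log2 fold changes ran from -0.048 to 0.88, -0.69 to 0.43, -0.71 to 0.12 and -1.04 to 0.55; the values that turned were -0.048 for Angptl2, 0.43 and 0.18 for Angptl4, 0.084 and 0.12 for Vegfa and 0.55 for Pgf. The difference in the log2 ratio of Angpt2 to Angpt1 was 7.39 at a pseudocount of 0.1, which raises the weight of low values, and 5.02 to 7.12 with 1 library left out. Over the whole table, 0 genes were higher and 3 lower; with no filter 1 was lower, without genes under 300 bp 0 were lower, and with 1 library left out 0 to 4 were higher (4 without Asxl1-/- replicate 1) and 1 to 6 lower (6 and 5 without WT replicates 1 and 2, 1 without Asxl1-/- replicate 2). With 1 library left out, list medians ran from 0.14 to 0.90 (receptors), 0.25 to 0.57 (hypoxia), -0.22 to 0.076 (PPAR), -0.16 to 0.12 (secreted modulators, 0.28 with all libraries), -1.51 to -0.14 (endothelial), -1.01 to 1.19 (mural), -2.19 to 1.49 (macrophage), -0.094 to 0.86 (other family ligands) and -0.55 to -0.22 (stromal). The median of the secreted modulators was -0.15 with no filter and 0.36 after median ratio scaling, and that of the endothelial markers -0.020 with no filter, which brings in genes near 0; the cause of the other shifts was not tested. No paired analysis was possible because the labels number no replicates, and the numbers used here follow the order of the samples. The differences given for replicates 1 and for replicates 2 set side by side libraries alike in macrophage markers. They are not pairs of the design. The read depth is unknown, so no counting interval is given for low genes such as Tek and Pgf, and 2 libraries per group limit every test.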

Other observations

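Mural cells wrap vessels and are a known source of Angpt1. Of 7 tested mural markers, 4 had a positive and 3 a negative log2 fold change, against 43.2% and 56.8% of all tested genes. Without overlap, 1 was higher and 0 lower, against 15.6% and 25.2% of all tested genes. Pdgfrb, the PDGF receptor of pericytes and stromal cells, had 103 and 135 FPKM in Asxl1-/-, against 86.9 and 49.2 FPKM in WT. Rgs5, a pericyte gene, had 36.3 and 0.576 FPKM in Asxl1-/-, against 0.216 and 1.07 FPKM in WT. Its only level above 1.07 FPKM was in Asxl1-/- replicate 1, the library with the highest Angpt2 and Ptprb. No other tested mural marker was highest in that library. Kcnj8 and Abcc9, pericyte markers under 1 FPKM in every library and not tested, were also highest there, at 0.262 and 0.252 FPKM. Cspg4, Mcam and Notch3 were highest in WT replicate 2, at 14.1, 14.0 and 17.1 FPKM. Notch3 came next in Asxl1-/- replicate 1, at 9.41 FPKM, against 1.12 FPKM in Asxl1-/- replicate 2 and 1.07 FPKM in WT replicate 1. Acta2, the smooth muscle actin, had 884 and 1545 FPKM in Asxl1-/-, against 393 and 1273 FPKM in WT, and Tagln at 263 and 318 FPKM, against 240 and 626 FPKM in WT.

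Among the endothelial markers, Cdh5, the endothelial cadherin, stood at 7.11 FPKM in Asxl1-/- replicate 2, was listed at 0 in Asxl1-/- replicate 1, and stood at 0.01 FPKM and listed at 0 in the WT libraries. Eng, a co-receptor of the TGF-beta family that stromal cells also express, had 0.906 and 0.571 FPKM in Asxl1-/-, against 10.7 and 0.912 FPKM in WT. Egfl7 had 1.95 and 1.16 FPKM in Asxl1-/-, against 6.21 and 2.71 FPKM in WT.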
